A study of Mus musculus with 2 samples.

Results

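The 8 genes Fos, Fosb, Fosl2, Jun, Junb, Jund, Atf3 and Egr1 encode transcription factors of the AP-1 group and an early growth response factor. They were chosen by name, and all 8 were among the 11691 genes counted in blood myeloid cells of C57BL/6 mice. Cells were taken 24 h after the middle cerebral artery had been closed proximally and for a limited time, a model of ischemic stroke that both groups had undergone. One library came from aged mice of 18 to 24 months and 1 from young mice of 2 to 4 months. CD11b+ Ly6G− and CD11b+ Ly6G+ cells were sorted from blood and sequenced in droplets with the 10x 3′ v2 kit, which counts each captured transcript by a unique molecular identifier (UMI). Whether mice were pooled, their sex and the proportion in which the sorted fractions were mixed are not stated in the sources used here. With 1 library per age there was no replicate check and no test was made, so every difference compares these 2 libraries, which may differ in more than age.

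AP-1 is a dimer of basic leucine zipper proteins. Fos family proteins (here Fos, Fosb and Fosl2) bind DNA only when paired, mostly with a Jun family protein (Jun, Junb or Jund), while Jun proteins can also pair with each other or with ATF proteins such as Atf3. Most of these genes, and the zinc finger gene Egr1, are immediate early genes: stimuli acting through MAP kinases switch on their transcription within minutes, and their mRNAs are short-lived. Jund is known for steadier expression and Fosl2 for a slower response. In neutrophils and monocytes AP-1 is known for its part in cytokine, chemokine and protease gene transcription and in the development of the lineages.

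The promoters of 7 of the 8 genes were found in the RefSeq table for the mouse build GRCm38.p6, and Egr1 is named only. The 110 bases directly upstream of the annotated start are given for Fos, Junb and Fosb, which were lower in the aged library below, and for Jun, their dimer partner. Capitals mark the matched motifs, which are the core TGACG of the cAMP response element bound by ATF and CREB proteins, the variant site TGACATCA and the TATA box TATAAA.
Fos, chr12:85473780-85473889, plus strand: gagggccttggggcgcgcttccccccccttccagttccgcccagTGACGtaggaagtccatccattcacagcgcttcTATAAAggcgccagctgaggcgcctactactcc
Fosb, chr7:19310046-19310155, minus strand: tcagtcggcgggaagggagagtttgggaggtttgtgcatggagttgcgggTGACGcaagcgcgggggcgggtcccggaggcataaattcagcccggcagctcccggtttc
Jun, chr4:95052223-95052332, minus strand: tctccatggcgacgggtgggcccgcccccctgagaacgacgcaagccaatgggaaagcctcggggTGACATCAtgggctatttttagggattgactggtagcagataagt
Junb, chr8:84978749-84978858, minus strand: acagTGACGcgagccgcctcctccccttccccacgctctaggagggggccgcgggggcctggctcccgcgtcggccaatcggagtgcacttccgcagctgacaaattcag
The search covered both strands of the 250 bases before each start. In Fos, TGACG lay 129 to 125 and 66 to 62 bases before the start and TATAAA 33 to 28 bases before it. Jun carried TGACATCA, the site at which Jun and ATF2 dimers are known to bind the Jun promoter itself, 45 to 38 bases before its start. TGACG lay 60 to 56 bases before the start in Fosb and 106 to 102 bases before it in Junb, and Atf3 carried its reverse complement CGTCA at 7 to 3 bases. Among 32851 windows of the same length, 17.8% held TGACG, 2.93% TGACATCA and 12.4% TATAAA. The full element TGACGTCA (1.55% of windows), the AP-1 site TGANTCA (6.75%) and the CArG box (1.47%) were matched in none of the 7, and Fosl2 and Jund held none of the 6 motifs in their windows. Among the 7, only Fos and Jun have the same start in RefSeq as in the GENCODE gene models. The Fosl2 and Atf3 windows therefore lie inside their GENCODE genes, and the last bases of the Fosb window lie inside its gene. The Jund and Junb windows end upstream of their genes without adjoining them. TGACG is part of TGACGTCA, so these matches overlap by construction. A match describes the letters and shows no binding.

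The aged library held 3944 cells and 13752454 UMIs, and the young library 1849 cells and 6440664 UMIs, with medians of 2219 and 2022 UMIs per cell. After removal of likely doublets, 3820 aged and 1822 young cells were used, and 12 cell barcodes occurred in both libraries. The authors' labels gave 2628 aged and 1133 young neutrophils, 932 and 540 monocytes, 104 and 52 conventional dendritic cells, 58 and 70 NK cells, 41 and 14 follicular B cells, 15 and 13 cells labelled Eryth-Neutro, and 42 cells labelled Mast cell, all aged. All 8 neutrophil markers looked up were found in the neutrophils and all 8 monocyte markers in the monocytes. Each list was also found in full in the other population, so presence alone does not bear out these labels. In monocytes the neutrophil markers summed to 218557 aged and 86763 young UMIs, above the monocyte markers at 115226 and 80033. In neutrophils they summed to 2312005 and 676789 UMIs, against 13398 and 6959 of the monocyte markers. The authors' name Mast cell is kept as a label, but its markers do not bear it out. Of the 8 looked up, Kit had 1 UMI, Cma1 none, and Tpsb2 was not analysed here. Mcpt8, a protease known from mouse basophils, had the most, 341 UMIs in 31 of the 42 cells. Fcer1a had 106 UMIs in 36 cells, Gata2 68 in 30, Ms4a2 54 in 29 and Cpa3 14 in 8. Whether these cells are basophils was not tested. In cells labelled as B cells, Cd79a was found in 40 of 41 aged and 14 of 14 young cells. Dendritic cell markers summed higher there than B cell markers, 4421 against 818 UMIs in aged and 1301 against 292 in young cells, of which 4386 and 1300 UMIs were H2-Aa, H2-Ab1 and Cd74, which B cells are also known to express. Levels are given as CPM, the UMIs of a gene per 1000000 UMIs of its population, from 3′ tags whose number is not scaled by transcript length. All intervals are 95% and cover counting error only, not the spread between mice or libraries.

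Junb, Fos and Jund made up nearly all of the transcripts of the 8 genes in neutrophils. Junb gave 39.7% of their summed UMIs in the aged and 40.4% in the young library, Fos 31.4% and 33.4%, and Jund 22.5% and 21.7%. Fosb, Atf3 and Egr1 were near the lower limit of the assay in neutrophils, with 15, 21 and 14 UMIs in 2628 aged cells and 29, 19 and 4 in 1133 young cells. Monocyte transcripts were made up mostly of Fos, at 47.0% of the summed UMIs in aged and 44.3% in young cells, and of Junb, at 39.8% and 38.1%. Jund gave only 7.0% and 9.66% there.

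Fos, the founding member of its family, was highest in the aged library in the 42 cells labelled Mast cell (1066 CPM, 869.5 to 1295) and in monocytes (1008 CPM, 984 to 1033), whose intervals overlapped. Aged neutrophils followed at 577 CPM (557 to 597). In the young library neutrophils led at 1266 CPM (1217 to 1316), above monocytes at 1139 CPM (1105 to 1174). In dendritic cells Fos stood at 510 CPM in the aged and 490 CPM in the young library, and in B cells at 341 and 447 CPM. The intervals of aged neutrophils and aged dendritic cells overlapped, as did those of young dendritic and B cells. It was lowest in NK cells among the larger populations, with 13 UMIs in 58 aged and 17 UMIs in 70 young cells, that is 93.2 and 114 CPM. S100a8, an abundant neutrophil transcript, stood in NK cells at 6.38% of its neutrophil level in the aged and 2.96% in the young library, whereas Fos stood at 16.2% and 8.98% of its neutrophil level. Fos in NK cells was above the share of S100a8 in both libraries, from few UMIs.

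Junb, a Jun family protein with a weaker activation domain than Jun, was found in every population. It was lowest under the label Eryth-Neutro, whose UMIs were mostly erythroid, at 252 CPM in the aged and 155 CPM in the young library. Between the other populations it varied less than Fos. Its level was 2394 CPM under the Mast cell label, 854 CPM in aged and 981 CPM in young monocytes, 902 and 990 CPM in dendritic cells, 744 and 626 CPM in B cells and 688 and 762 CPM in NK cells. Neutrophils had 729 CPM in the aged and 1531 CPM in the young library. In the aged library the intervals of neutrophils, B cells and NK cells overlapped, as did those of monocytes and dendritic cells, and B and NK cells reached the monocytes, so the order among them is not settled. In the young library neutrophils stood above every other population and the intervals of monocytes and dendritic cells overlapped.

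Jund, the Jun family gene with the steadiest known expression, had another order. Young neutrophils (822 CPM), B cells (611 CPM) and NK cells (581 CPM) were its highest young populations, followed by dendritic cells (402 CPM) and monocytes (248 CPM). In the aged library it stood at 836 CPM under the Mast cell label, 413 CPM in neutrophils, 403 CPM in B cells, 214 CPM in dendritic cells, 208 CPM in NK cells and 150 CPM in monocytes. Intervals of neutrophils and B cells overlapped in both libraries, as did those of B and NK cells and of NK and dendritic cells in the young library. In the aged library the NK interval (139 to 299 CPM) took in those of dendritic cells and monocytes.

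The remaining 5 genes were rarer. Jun reached 460 CPM under the Mast cell label, 124 CPM in aged and 79.5 CPM in young dendritic cells, 45.4 and 59.9 CPM in monocytes and 26.6 and 38.0 CPM in neutrophils. Fosl2, a Fos family gene without the strong activation domain of Fos, was the only one of the 8 with its highest level in neutrophils in both libraries, at 83.2 CPM in aged and 105 CPM in young cells, against 32.5 and 37.0 CPM in monocytes. Young B cells had no Fosl2 UMI, which at a floor of 3 UMIs allows up to 44.7 CPM (95% Poisson limit 55.0 CPM). Fosb reached 199 CPM under the Mast cell label, 13.3 CPM in aged and 37.5 CPM in young monocytes, and 2.74 and 14.3 CPM in neutrophils. Atf3, a stress-induced bZIP factor that can repress AP-1 targets, stood at 27.0 CPM in aged and 38.9 CPM in young monocytes, and at 3.83 and 9.38 CPM in neutrophils. Egr1 had 14.4 CPM in aged and 30.4 CPM in young monocytes and 2.55 and 1.97 CPM in neutrophils.

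**Figure D1:**
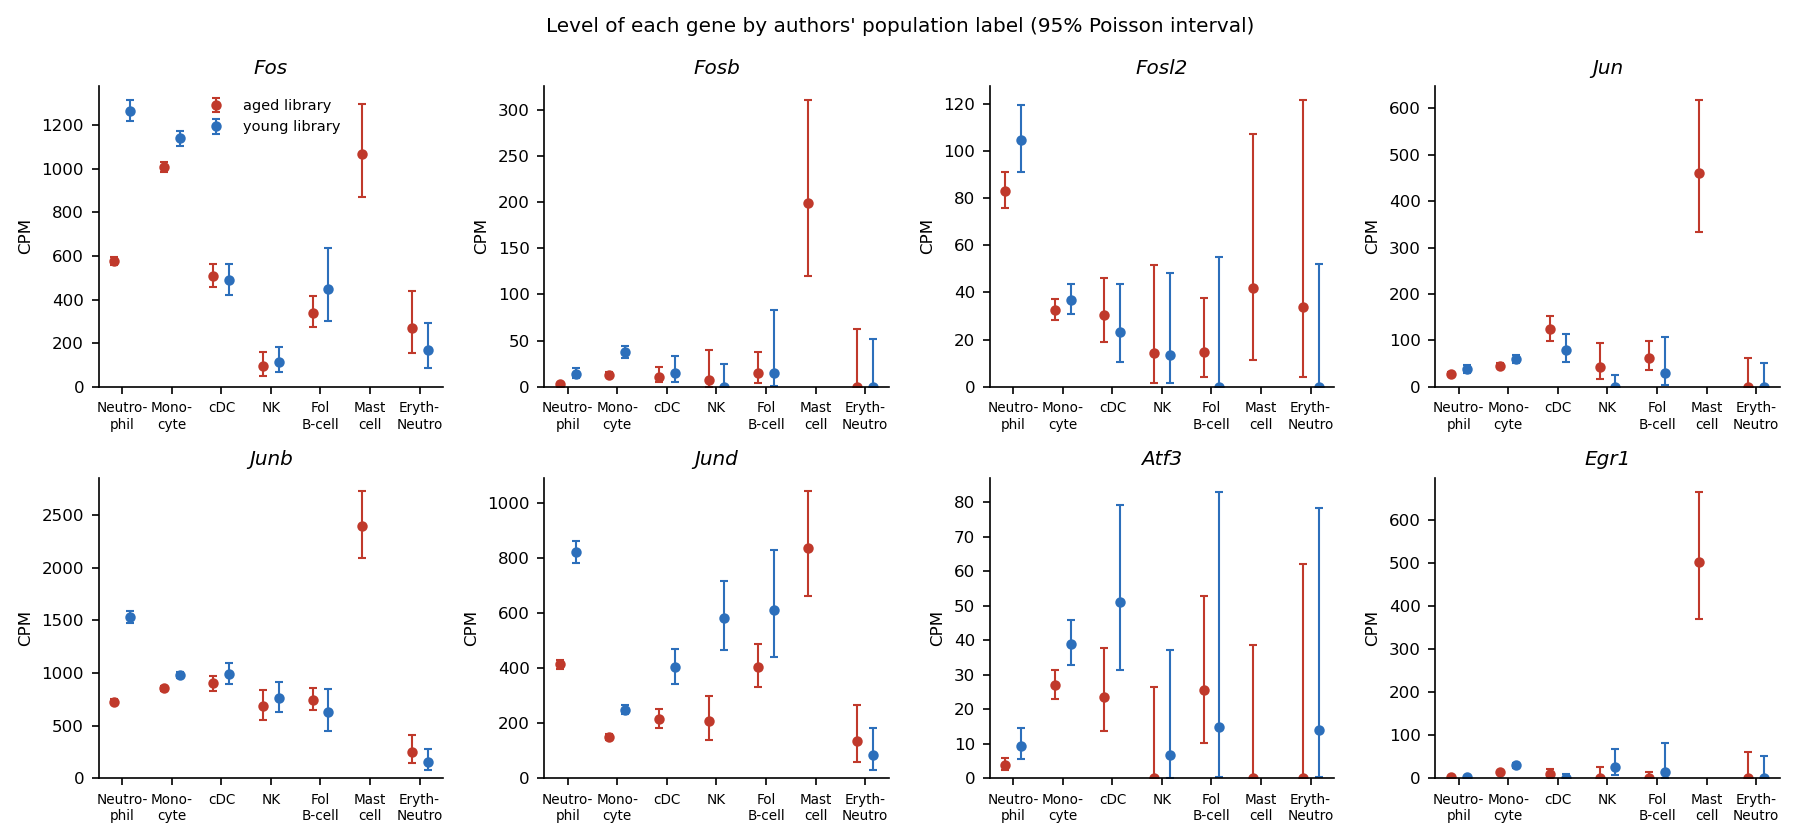
Level of each of the 8 genes in CPM (vertical axes, each from 0) by the authors' population label, aged library left of young library. Points are pooled UMI sums and bars are 95% Poisson intervals for counting error. Junb stood between 626 and 2394 CPM in the labels other than Eryth-Neutro, and Egr1 reached 502 CPM under the Mast cell label.

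Cells labelled Mast cell in the aged library had the highest summed level of the 8 genes, 5499 CPM (5039 to 5990), against 1838 CPM in aged neutrophils, a ratio of 2.99 (2.74 to 3.27). Egr1 stood out among them. It had 48 UMIs in 21 of the 42 cells (502 CPM), against 14 UMIs in 12 of 2628 aged neutrophils and 92 UMIs in 70 of 932 aged monocytes. Fosb had 19 UMIs in 15 of the 42 cells and Jun 44 UMIs in 15 cells. Atf3 had none in these 42 cells, which at the same floor allows up to 31.4 CPM (95% limit 38.6 CPM). The young library held no cells of this label, so no comparison of ages could be made in them.

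Comparison of monocytes with neutrophils within each library asks how the 2 lineages divide the 8 genes. The early-response genes of low level were on the monocyte side in both libraries. The monocyte over neutrophil ratio of CPM in the aged and then the young library was 7.05 and 4.15 for Atf3, 4.85 and 2.62 for Fosb, 5.62 and 15.4 for Egr1, and 1.71 and 1.58 for Jun. Jund and Fosl2 were on the neutrophil side, with 0.363 and 0.302 for Jund and 0.390 and 0.354 for Fosl2. Fos was at 1.75 in the aged and 0.90 in the young library, and Junb at 1.17 and 0.641, so both genes stood on opposite sides of 1 in the 2 libraries.

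Of the 8 genes, 5 were at least 1.5-fold higher in monocytes in the aged library, where 67.8% of all 7447 genes measured were. In the young library 4 of 8 were, where 61.5% of 6120 genes were. At least 1.5-fold lower in monocytes were 2 of 8 genes in the aged and 3 of 8 in the young library, against 12.1% and 13.7% of all genes. At 2-fold, Atf3, Fosb and Egr1 were higher in monocytes in both libraries, 3 of 8 against 58.2% of genes in the aged and 51.4% in the young library. S100a8, S100a9 and Retnlg took 41.7% of aged and 33.0% of young neutrophil UMIs, against 3.35% and 2.33% of monocyte UMIs, and the median gene stood at 2.58 and 2.07. Under TMM scaling, which moved all these ratios by −1.32 (aged) and −0.99 (young) on the log2 scale, Fos fell on the neutrophil side in the aged library (0.699) and Jun in both (0.682 and 0.791). Junb was then below 1 in both libraries as well (0.468 and 0.322), so neither Fos nor Junb stood on opposite sides of 1 in the 2 libraries. The positions of Atf3, Fosb and Egr1 above 1 and of Jund and Fosl2 below 1 held under every scaling tried.

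In neutrophils the 8 genes together were less than 0.5 times as abundant in the aged as in the young library, at 1838 CPM (1802 to 1874) against 3787 CPM (3702 to 3872), a ratio of 0.485 (0.471 to 0.50). Fos, Junb and Jund carried the difference. Fos had 3162 UMIs and 577 CPM in aged against 2565 UMIs and 1266 CPM in young neutrophils, a ratio of 0.456 (0.433 to 0.480). Junb was at 729 against 1531 CPM, a ratio of 0.476 (0.454 to 0.499), and Jund at 413 against 822 CPM, a ratio of 0.503 (0.472 to 0.536).

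The other 2 measured genes differed less. Jun, at 146 UMIs in aged against 77 in young neutrophils, had a ratio of 0.701 (0.528 to 0.936), and Fosl2, at 456 against 212 UMIs, had 0.795 (0.674 to 0.941). Fosb, Atf3 and Egr1 did not reach the 50 UMIs over both libraries that were required of a measured gene. Their ratios were 0.191 (0.0953 to 0.369) for Fosb, 0.409 (0.209 to 0.804) for Atf3 and 1.29 (0.406 to 5.40) for Egr1.

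Of the 5 genes measured in neutrophils, 3 were at least 1.5-fold lower in the aged library and 0 higher, where 20.3% of all 4745 genes measured were lower and 3.79% higher. At 2-fold, 2 of 5 were lower, Fos and Junb, against 5.27% of genes. The median gene itself stood at a ratio of 0.847 (−0.24 on the log2 scale), and relative to it Fos was at 0.538, Junb at 0.563 and Jund at 0.594. Jun at 0.828 (0.624 to 1.11) and Fosl2 at 0.940 (0.797 to 1.11) had intervals that included the median gene. The ratio of Fos was at percentile 3.14 of all genes, that of Junb at 4.15 and that of Jund at 5.48, while Jun was at 25.2 and Fosl2 at 41.1. Among the genes whose UMI sum was within 2-fold of their own, 2 of 188 had a lower ratio than Fos, 3 of 157 than Junb and 9 of 264 than Jund.

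TMM scaling raised all neutrophil ratios by 0.31 on the log2 scale. Fos was then at 0.566, Junb at 0.591 and Jund at 0.625, all still at least 1.5-fold lower, whereas Fosl2 was at 0.988. Genes of other cell types were at low levels in the neutrophils of both libraries: the monocyte markers summed to 2444 CPM in aged and 3434 CPM in young cells, the erythroid markers to 271 and 999 CPM and the platelet markers to 31.2 and 13.3 CPM, with Gp9 and Itga2b at 0 in the young. Without the cells that carried a platelet marker UMI, Fos was at 0.452, Junb at 0.473 and Jund at 0.503. The part of the monocyte and erythroid markers in the result was not tested.

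**Figure D2:**
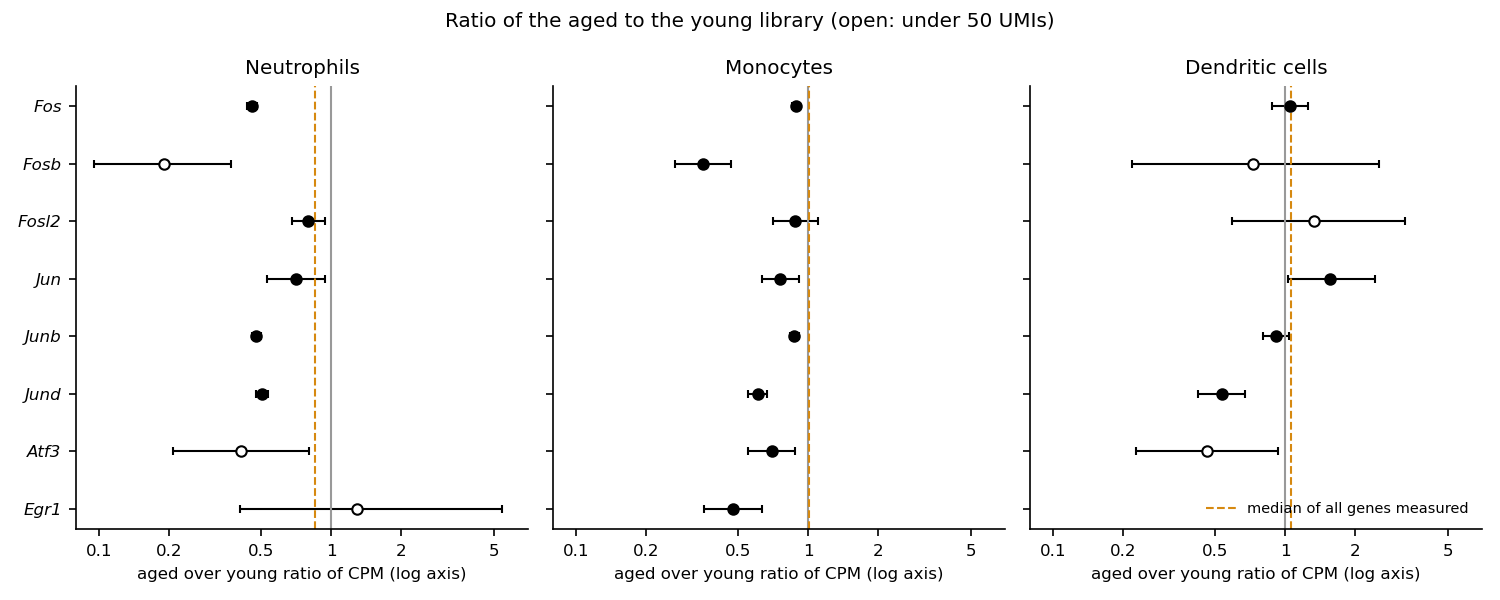
Ratio of CPM in the aged library over the young library for the 8 genes in neutrophils, monocytes and dendritic cells (log horizontal axis, bars are 95% intervals for counting error, open symbols have under 50 UMIs over both libraries). The dashed line is the median of all genes measured. Fos, Junb and Jund lie between 0.456 and 0.503 in neutrophils, and Fosb and Egr1 at 0.354 and 0.473 in monocytes.

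In monocytes Fosb, Egr1 and Jund differed most between the libraries. The sum over the 8 genes was 2145 CPM (2109 to 2181) in aged and 2573 CPM (2521 to 2625) in young monocytes, a ratio of 0.834 (0.812 to 0.856). Fosb had 85 UMIs (13.3 CPM) in aged and 136 UMIs (37.5 CPM) in young monocytes, a ratio of 0.354 (0.266 to 0.467). Egr1 had 92 UMIs in 70 of 932 aged cells and 110 UMIs in 74 of 540 young cells, a ratio of 0.473 (0.355 to 0.630). Jund was at 150 against 248 CPM, a ratio of 0.605 (0.552 to 0.663).

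The genes that dominated the sum differed less: Fos was at 1008 in aged against 1139 CPM in young monocytes, a ratio of 0.885 (0.851 to 0.921), and Junb at 854 against 981 CPM, a ratio of 0.870 (0.834 to 0.908). Atf3 had a ratio of 0.694 (0.552 to 0.873), Jun 0.758 (0.634 to 0.909) and Fosl2 0.878 (0.703 to 1.10). All 8 genes were measured, and 3 were at least 1.5-fold lower and 0 higher in the aged library, against 8.68% and 5.88% of 7778 genes. At 2-fold, 2 of 8 were lower, Fosb and Egr1, against 2.08% of genes. The median gene stood at 0.01 on the log2 scale. Fosb was at percentile 0.501 of all genes, Egr1 at 1.59 and Jund at 5.31. Of genes with a UMI sum within 2-fold, 8 of 3487 had a lower ratio than Fosb, 34 of 3515 than Egr1 and 18 of 943 than Jund.

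The nonclassical monocyte markers summed to 164 CPM in aged and 341 CPM in young monocytes, and the dendritic cell markers to 2194 and 1293 CPM, with Clec9a at 0 in both and Xcr1 and Ccr7 at 0 in the young. Classes of monocytes were set by Ly6c2 and by Ace, Treml4, Eno3 and Spn. The other nonclassical markers summed above, Nr4a1 and Cx3cr1, were not used for them. The first class, 608 aged and 301 young monocytes, had a Ly6c2 UMI and none of those nonclassical genes. Egr1 was at 0.451 (0.291 to 0.697) there, Fosb at 0.384 (0.273 to 0.538) and Jund at 0.605 (0.535 to 0.685). The ratios of these 3 genes in this class were thus of like size to those over all monocytes. Atf3 was not, at 1.02 (0.735 to 1.43) in this class against 0.694 over all monocytes, and Jun was at 0.676. The second class, 31 aged and 37 young cells, had at least 2 UMIs of Ace, Treml4, Eno3 and Spn together and no Ly6c2 UMI. Jund was at 0.478 (0.299 to 0.745) there, and Egr1, with 5 against 9 UMIs, at 0.659 (0.174 to 2.19).

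Jund was lower in the aged library in neutrophils, monocytes, dendritic cells, NK cells and B cells. Dendritic cells had 154 UMIs (214 CPM) in the aged and 157 UMIs (402 CPM) in the young library, a ratio of 0.532 (0.423 to 0.668). NK cells had 29 against 87 UMIs, a ratio of 0.358 (0.227 to 0.550), and B cells 110 against 41 UMIs in 41 and 14 cells, a ratio of 0.659 (0.457 to 0.968). All 5 intervals lay below 1. In cells labelled Eryth-Neutro, with 8 UMIs in 15 aged and 6 in 13 young cells, Jund was at 1.59 (0.485 to 5.58). Erythroid markers took 655500 CPM of the aged and 884900 CPM of the young UMIs there, which raises the ratio of any other gene. Junb was at 0.911 (0.802 to 1.04) in dendritic cells, 0.904 (0.682 to 1.20) in NK cells and 1.19 (0.848 to 1.70) in B cells. These populations share 1 library per age, so they are not replicates of each other, and other scalings were not run in NK and B cells.

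Dendritic cells had 1 gene in the other direction. Jun had 89 UMIs (124 CPM) in 104 aged and 31 UMIs (79.5 CPM) in 52 young dendritic cells, a ratio of 1.56 (1.02 to 2.42), against 0.701 in neutrophils and 0.758 in monocytes. Relative to the median gene of each population it was at 1.48 (0.973 to 2.30) in dendritic cells, under the 1.5-fold limit, 0.828 (0.624 to 1.11) in neutrophils and 0.754 (0.630 to 0.903) in monocytes. Fos was at 1.04 (0.872 to 1.25). Of 4 genes measured there, 1 was at least 1.5-fold lower and 1 higher, against 5.95% and 9.31% of 2504 genes. Egr1 had 8 UMIs in aged and none in young dendritic cells, where a count of 0 allows up to 7.69 CPM at the floor of 3 UMIs (95% limit 9.46 CPM).

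Of the 8 genes, 4 overlap an annotated gene on the other strand, Jun, Junb, Jund and Atf3, and whether counting used the strand is not stated in the sources used here. The partner of Atf3, Gm24748, was not analysed here. Junos, antisense to Jun, had 3 UMIs in aged neutrophils and 0 in young ones, and Gm11175, antisense to Jund, had at most 6 UMIs in any neutrophil or monocyte group. Prdx2, opposite Junb, had 80 UMIs in aged and 54 in young neutrophils, against 3996 and 3103 UMIs of Junb, and 1923 and 1011 UMIs in monocytes. A misassignment between Junb and Prdx2 was not tested.

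The balance of Fos family to Jun family transcripts differed more between populations than between libraries. Summed over Fos, Fosb and Fosl2 against Jun, Junb and Jund, it was 0.567 (0.544 to 0.591) in aged and 0.579 (0.553 to 0.607) in young neutrophils. Monocytes had 1.01 (0.971 to 1.04) and 0.941 (0.903 to 0.981), with overlapping intervals, and dendritic cells 0.445 (0.394 to 0.501) and 0.359 (0.305 to 0.421). B cells had 0.306 and 0.365, and NK cells, with 16 aged and 19 young Fos family UMIs, had 0.122 and 0.0945. Cells labelled Mast cell were at 0.354 (0.286 to 0.435). The neutrophil ratio did not differ between libraries beyond its intervals although its Fos and Jun family parts were each lower in the aged library.

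Within the Jun family, Jund over Junb was 0.567 (0.538 to 0.597) in aged and 0.537 (0.505 to 0.570) in young neutrophils. In monocytes it was 0.176 (0.164 to 0.188) against 0.253 (0.235 to 0.272), in dendritic cells 0.237 against 0.407, in NK cells 0.302 against 0.763 and in B cells 0.542 against 0.976. The aged library was lower in monocytes, dendritic cells and NK cells beyond the intervals, while the intervals of the B cells and of the neutrophils overlapped.

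**Figure D3:**
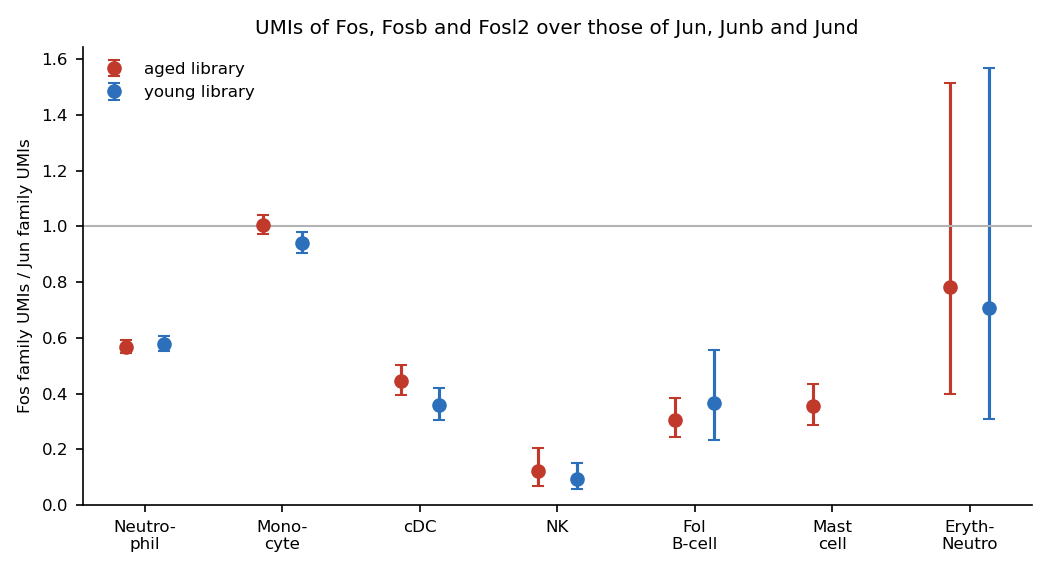
UMIs of Fos, Fosb and Fosl2 over UMIs of Jun, Junb and Jund (vertical axis from 0) by population label, aged library left of young library, with 95% intervals for counting error. Monocytes lie near 1 (1.01 and 0.941), neutrophils at 0.567 and 0.579 and NK cells at 0.122 and 0.0945.

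To read the genes per cell at equal depth, each cell was thinned at random to 500 UMIs, which all cells reached. At least 1 UMI of the 8 genes was then found in 59.4% of aged and 82.5% of young neutrophils, and unthinned in 95% and 99.5%. Junb was found in 30.7% of aged and 53.5% of young neutrophils, Fos in 24.3% and 44.5%, and Jund in 19.2% and 34.4%. NK cells of the same libraries, with medians of 2314 and 2000.5 UMIs against 1900 and 1629 in neutrophils, had Fos in 5.17% and 8.57%. The neutrophil shares of Fos were above those of NK cells in both libraries.

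The difference between libraries lay in cells with several genes as well as in cells with none. No gene of the 8 was found in 40.6% of aged and 17.5% of young neutrophils, 1 gene in 41.2% and 39.0%, 2 genes in 15.3% and 29.4%, and 3 genes in 2.74% (2.15% to 3.44%) and 13.3% (11.4% to 15.4%). The mean number of distinct genes per cell was 0.807 in aged and 1.41 in young neutrophils. Monocytes had at least 1 of the 8 genes in 62.9% of aged and 72.2% of young cells, and a mean of 0.884 and 1.04 genes. Cells labelled Mast cell had the highest mean, 1.79 genes, and at least 1 of the genes in 90.5% of cells. Dendritic cells had at least 1 in 59.6% and 61.5%, and NK cells in 39.7% and 44.3%. The aged library had the larger share in B cells, 58.5% of 41 against 42.9% of 14 cells, and under the label Eryth-Neutro, 26.7% of 15 against 15.4% of 13 cells. Under the latter label erythroid markers took a larger part of the UMIs in the young library.

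**Figure D4:**
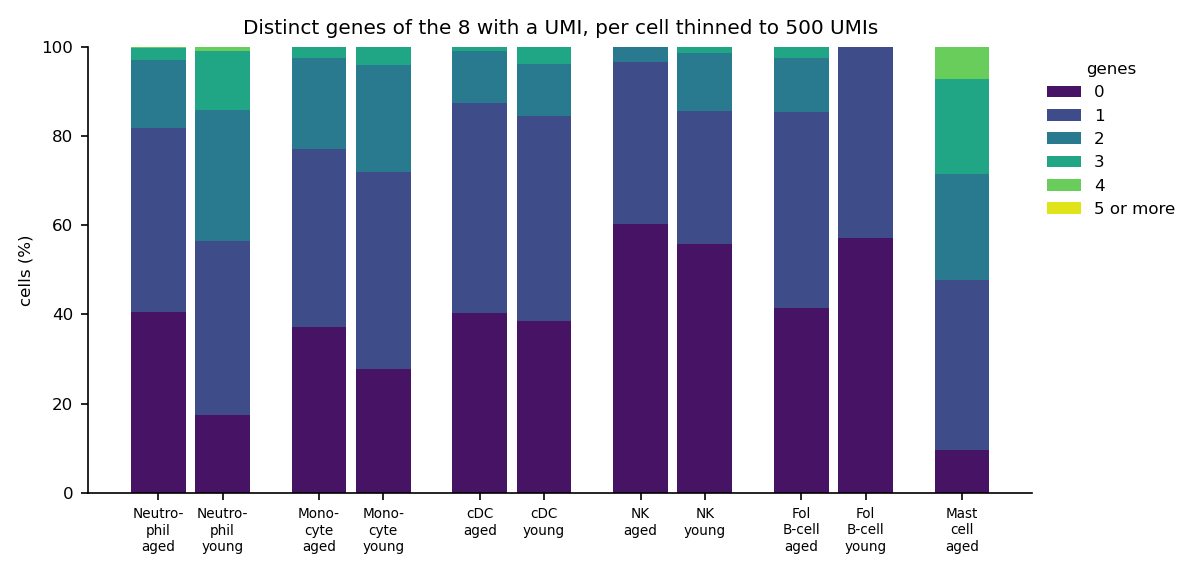
Number of distinct genes of the 8 with a UMI in each cell after thinning to 500 UMIs, as a stacked share of cells (percent, from 0 to 100), aged bar left of young bar for each population label. The part with no gene was 40.6% in aged and 17.5% in young neutrophils, and 37.1% in aged and 27.8% in young monocytes.

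Whether the genes occur in the same cells was read as observed over expected co-detection, the number of cells with UMIs of both genes over the product of the 2 shares. Fos and Junb were found together in 219 aged neutrophils where 196.2 were expected, a ratio of 1.12 (0.973 to 1.27), and in 287 young neutrophils where 269.6 were expected, a ratio of 1.07 (0.945 to 1.20). Monocytes gave 1.15 (0.974 to 1.35) in the aged and 1.04 (0.837 to 1.28) in the young library. Of the pairs with at least 5 expected cells, 9 in aged and 9 in young neutrophils and 5 in aged and 7 in young monocytes, 0 had an interval that excluded 1. Thinned to 3000 UMIs, a depth that 893 aged and 466 young monocytes reached, 21 and 23 pairs could be read and 0 intervals excluded 1. Fos was then found in 806 aged and 431 young cells and Junb in 798 and 435, so ratios of pairs with them could hardly rise above 1. All these intervals rest on the joint count alone, which makes them wider than the spread given the 2 shares. They therefore cannot decide whether the genes occur independently of each other. The highest there was Jun with Atf3, at 1.67 (0.888 to 2.85) in aged and 1.68 (0.940 to 2.77) in young monocytes. Unthinned, where depth alone raises co-detection, Jun with Egr1 was at 1.77 (1.19 to 2.54) and 1.61 (1.12 to 2.23). At 1000 UMIs 1 of 11 pairs in aged neutrophils had an interval above 1, Jun with Jund in 33 cells where 22.4 were expected, 1.47 (1.01 to 2.07), and 0 of 14 pairs did in young neutrophils and 0 of 14 and 0 of 15 in aged and young monocytes. The variance of Fos counts over their mean at 500 UMIs was 1.11 in aged and 1.23 in young neutrophils, and that of Junb 1.11 and 1.17, where independent sampling of equal cells gives 1. For the 8 genes summed per cell it was 1.17 and 1.32 in neutrophils and 1.33 and 1.05 in monocytes. The variance of that sum was 1.13 in aged and 2.58 in young neutrophils, against 1.06 and 2.26 summed over the single genes, and 1.53 and 1.41 against 1.34 and 1.47 in monocytes.

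Camp, Ltf, Ngp, Ly6g and Retnlg, looked up as early neutrophil transcripts, summed to 65230 CPM in aged and 46550 CPM in young neutrophils. Retnlg alone gave 63310 and 45550 CPM of these sums. The 8 genes were also read within classes of cells by these transcripts, which are thus mostly classes of Retnlg level. Whether the classes part cells by maturity was not tested. Cells of both libraries were split into 3 classes by their UMIs of these 5 genes per 500 UMIs, with limits at 22 and 34. Of the aged neutrophils 715, 843 and 1070 fell in the low, middle and high class, and of the young 632, 327 and 174. The summed 8 genes were lower in classes with more UMIs of these 5 genes, at 2363, 1822 and 1552 CPM in the aged and 4235, 3378 and 3202 CPM in the young library. Within the classes the aged over young ratio was 0.558 (0.533 to 0.584), 0.539 (0.510 to 0.570) and 0.485 (0.454 to 0.518). The difference between libraries was present in each class and was smaller in the low and middle class than over all neutrophils together. In 4 classes of neutrophil depth, with limits at 1577, 1823 and 2213 UMIs, the ratio was 0.542, 0.534, 0.506 and 0.483.

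The ratio varied more with depth in monocytes. In 4 classes with limits at 4954, 6487 and 8349 UMIs, the summed ratio was 1.07 (1.00 to 1.15), 0.825, 0.747 and 0.781 from low to high depth. In the shallowest class the cells still differed in depth, with medians of 4199 UMIs in aged and 3200 in young cells. Fos moved with it, at 1.13, 0.888, 0.840 and 0.782, and Egr1 at 0.966, 0.540, 0.528 and 0.228. Fosb was below 1 in every class, at 0.498, 0.480, 0.366 and 0.235, and so was Jund, at 0.554, 0.544, 0.544 and 0.70. Egr1 in the shallowest class rested on 21 aged and 14 young UMIs.

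**Figure D5:**
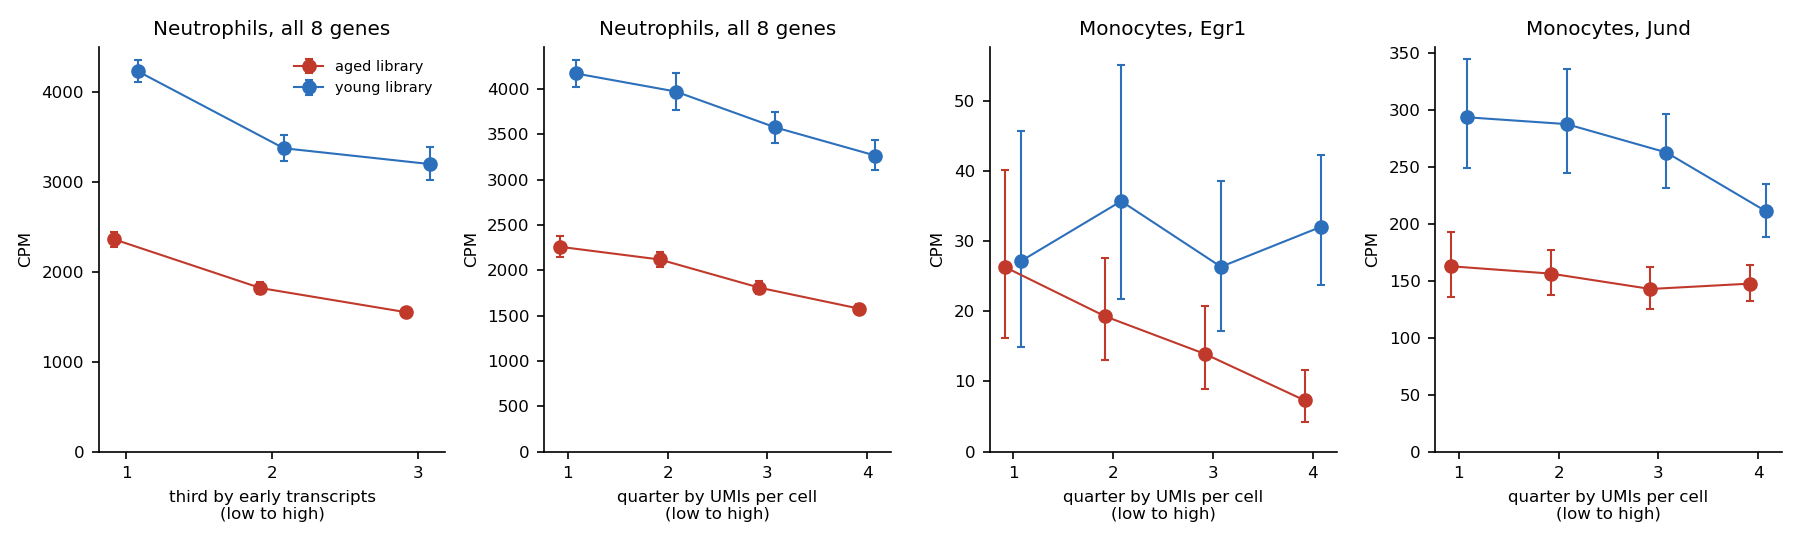
Levels in CPM (vertical axes from 0) in classes of cells by early transcripts (mostly Retnlg) or by depth, aged library left of young library, with 95% Poisson intervals. The neutrophil panels show the 8 genes summed, by early transcripts and by depth. The monocyte panels show Egr1 alone and Jund alone, by depth. Neutrophil levels lie apart in every class by early transcripts (2363 against 4235 CPM in the lowest). Egr1 in the shallowest class of monocytes has 26.3 against 27.2 CPM.

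Other genes of the pathway were read from 6 lists. Of 18 measured immediate early genes outside the 8, 6 were at least 1.5-fold lower in aged neutrophils and 0 higher, with a median log2 ratio of −0.42 beside −0.24 for all genes. Over all genes measured, 20.3% were lower and 3.79% higher. With TMM scaling 2 of the 18 were lower and 1 higher, Klf2, where 6.98% of all genes were lower and 10.4% higher. Ppp1r15a, a phosphatase subunit of the stress response, was at 12.4 in aged against 33.6 CPM in young neutrophils, a ratio of 0.370 (0.260 to 0.525). Zfp36, whose product destabilises cytokine mRNAs, was at 0.611 (0.553 to 0.675) and Btg1, an antiproliferative gene, at 0.639 (0.615 to 0.665). Klf2, a factor of leukocyte quiescence, was higher, at 1352 against 1070 CPM, a ratio of 1.26 (1.20 to 1.33), which is under the 1.5-fold limit without TMM scaling.

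Phosphatases that switch off MAP kinases and other feedback genes were on the lower side: 4 of 7 measured genes of that list were lower in aged neutrophils and 0 higher, with a median of −0.60, where 20.3% of all genes were lower. Of the 4 lower genes, Nab1 at 0.659 (0.386 to 1.15) and Spry2 at 0.644 (0.407 to 1.04) had intervals that included 1. With TMM scaling 1 of the 7 was lower, Dusp6, and 1 higher, Tob1, where 6.98% of all genes were lower and 10.4% higher. Dusp1, itself an immediate early gene, had 1291 in aged against 2204 CPM in young neutrophils, a ratio of 0.586 (0.564 to 0.608), and Dusp6, an ERK phosphatase, had 0.493 (0.385 to 0.632). The kinases upstream were near the median gene, with 3 of 25 lower, 2 higher and a median of −0.22, and with TMM scaling 0 were lower and 3 higher. Map3k8, a kinase upstream of ERK, was at 1.53 (1.13 to 2.11).

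Among 20 other bZIP genes, 3 were lower and 1 higher in aged neutrophils, with a median of −0.01, and with TMM scaling 0 were lower and 3 higher. Over all genes 20.3% were lower and 3.79% higher, and with TMM scaling 6.98% and 10.4%. Cebpb, a factor of emergency granulopoiesis, was at 1807 in aged against 1898 CPM in young cells, a ratio of 0.952 (0.917 to 0.988), and Ddit3 and Batf were at 0.599 and 0.632. Of 13 inflammatory genes with known AP-1 or EGR1 sites, 4 were lower and 2 higher, with a median of −0.02, and with TMM scaling 2 were lower and 3 higher. Il1b was at 998 in aged against 1932 CPM in young neutrophils, a ratio of 0.517 (0.496 to 0.538), and Ptgs2, the inducible cyclooxygenase, at 0.181 (0.106 to 0.301). Cxcl3, a neutrophil chemokine, was at 4.76 (2.91 to 8.33) and Thbs1, thrombospondin, at 3.14 (2.33 to 4.33), while Cxcl2 was at 1.08 (1.04 to 1.12). In this list only the ratio of Ptgs2 lay below those of Fos, Junb and Jund, and the ratios of the other measured genes lay above them.

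Heat shock genes, which encode chaperones of the stress response, had 1 of 8 measured genes lower and 1 higher in aged neutrophils, with a median of −0.27. The shares of all genes were 20.3% lower and 3.79% higher there, and 8.68% and 5.88% in monocytes. Hspa8 was at 1.03 (0.947 to 1.12) and Hspa1a, with 48 aged and 4 young UMIs, at 4.44 (1.63 to 16.9). In monocytes 0 of 13 were lower and 0 higher, but their median was 0.40 beside 0.01 for all genes, and Hspa5 was at 1.39 (1.28 to 1.5).

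In monocytes 4 of 21 measured immediate early genes were lower and 0 higher, with a median of −0.13. Over all 7778 genes 8.68% were lower and 5.88% higher, which is the comparison for each list here. Nr4a1, a nuclear receptor gene required for nonclassical monocytes and also in the nonclassical marker list, was at 64.3 in aged against 122 CPM in young monocytes, a ratio of 0.528 (0.461 to 0.606). Nr4a2 was at 0.505 (0.338 to 0.753) and Klf4, a monocyte differentiation factor, at 0.640 (0.565 to 0.727), while Klf2 was at 1.32 (1.25 to 1.40) and Ier2 at 1.04 (0.968 to 1.12). Of the phosphatases, 2 of 13 were lower, with Dusp2 at 0.519 (0.385 to 0.699) and Dusp1 at 0.875 (0.827 to 0.925), and of the kinase list 5 of 31. Srf, at 0.656 (0.429 to 1.005), is in both the kinase and the immediate early list and was counted as lower in each. Other bZIP genes had 2 of 27 lower and 2 higher, near the shares of all genes. Batf3, a factor of dendritic cell development, was at 0.652 (0.509 to 0.835). Of 14 inflammatory genes, 5 were higher and 1 lower, with Spp1, osteopontin, at 4.50 (3.75 to 5.43) and Thbs1 at 1.97 (1.71 to 2.28).

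The genes whose detection went most with the 8 in neutrophils were read as the share of cells with a UMI among cells that had a member UMI over that among cells with none, at 500 UMIs. Among 1492 genes the median of the lower of the 2 libraries' values was 0.937. Apobec1, an RNA editing enzyme gene, led with 2.25 in the aged and 2.54 in the young library, followed by the chemokine Ccl4 at 2.86 and 1.85 and the forkhead factor Foxp1 at 1.78 and 2.08. Mtpn, Milr1, Celf2, Tle3, Arrdc3, Slc15a3 and Rbm8a completed the first 10, with lower values between 1.49 and 1.69. At 1000 UMIs, where 2411 genes could be read, 0 of these 10 were again among the first 10, so the order does not hold at another depth.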

How the data were processed

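Cells of 1 aged and 1 young library were read from the table of raw UMI counts per gene and cell that the authors deposited, with the authors' population label of each cell. Cell Ranger 2.1.1 and mm10 are listed, with no role, per the submitters' processing notes. How the authors filtered cells and whether they used strand is not stated. No cell (0) was below 200 genes or 500 UMIs or above 10% mitochondrial UMIs. The scrublet threshold in scanpy 1.11.5 called 0 aged and 4 young doublets, so the highest scores were removed at 8 per 1000 cells for each 1000 cells, 124 aged (3.14%) and 27 young (1.46%). UMIs were summed per population and library and expressed as CPM of the total. Intervals are exact Poisson for sums; ratios have exact conditional binomial and shares Clopper-Pearson intervals (95%, scipy 1.17.1). A measured gene had at least 50 UMIs over both groups compared, and a count of genes took those at least 1.5-fold apart. The scripts were tested on simulated data. TMM factors came from edgeR 4.0.16. Named from each list were up to 4 genes with the most UMIs and up to 4 with the ratio farthest from 1; which of these to print, and the classes of cells by depth or markers, were chosen after values were seen. The 8 genes and the lists were chosen with earlier results of these data known. No p-value was computed, and 0 columns of other samples were left out.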

Additional observations from a re-analysis of the deposited data

Results flagged for a closer look

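Jun differed between populations in the direction of its aged over young ratio. In dendritic cells it was higher in the aged library, at a ratio of 1.56 (1.02 to 2.42), from 89 UMIs in 104 aged and 31 UMIs in 52 young cells. It was lower in the aged library in neutrophils, at 0.701 (0.528 to 0.936), from 146 aged and 77 young UMIs, and in monocytes, at 0.758 (0.634 to 0.909), from 291 and 217 UMIs. Relative to the median gene, dendritic cells were at 1.48 (0.973 to 2.30), under the 1.5-fold limit and with 1 inside the interval, and neutrophils at 0.828 (0.624 to 1.11). Without that centring the intervals lie on opposite sides of 1, and the difference between the populations was not tested, since each age has 1 library. The unthinned share of dendritic cells with a Jun UMI was 45.2% in aged and 46.2% in young cells. Their median depths were 6632 and 7712.5 UMIs, so these shares were not read at equal depth. At 500 UMIs only 2 aged and 1 young cells had a Jun UMI, too few to compare. The most Jun UMIs in a cell were 8 in the aged and 2 in the young library.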

How the results depend on the processing

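No paired analysis was possible because each age has 1 library. Of 147 values for the main comparisons under alternative settings, 106 moved by less than their interval (counts: within 1.5 times) and 41 moved further; of 360 for single genes, 261 stayed within it, 96 moved and 3 changed side of 1. In neutrophils the summed ratio of the 8 genes, 0.485, was 0.504 with the same lowest depth in both libraries, 0.603 with TMM scaling, 0.573 centred on the median gene and 0.558 without S100a8, S100a9 and Retnlg in the total. Over all genes the split of lower and higher went from 962 and 180 to 331 and 492 (TMM), 403 and 382 (centred) and 475 and 341 (those 3 genes left out), and other immediate early genes lower from 6 to 2 in each of these and at 2-fold. With genes from 20 UMIs, 5 of 7 measured genes of the 8 were lower in place of 3 of 5. In monocytes the summed ratio, 0.834, was 0.859 thinned to 500 UMIs, 0.797 without ribosomal and mitochondrial genes and 0.869 as a mean over cells; thinned, 1 of 3 measured genes of the 8 was lower in place of 3 of 8, 2 other immediate early genes were lower, and all genes split into 103 lower and 248 higher in place of 675 and 457, with fewer genes measured. Without ribosomal and mitochondrial genes that split was 840 and 334. Other immediate early genes lower in monocytes numbered 2 from 200 UMIs and 0 at 2-fold, in place of 4. The summed ratio of monocytes over neutrophils, 1.17 aged and 0.679 young, was 0.466 and 0.341 with TMM, 0.704 and 0.466 without the 3 neutrophil genes, and 1.51 and 0.899 without ribosomal and mitochondrial genes. Genes higher in monocytes, 5 aged and 4 young, numbered 2 and 0 thinned, 3 and 2 with TMM, 2 and 1 from 200 UMIs, and in the aged library 3 without the 3 neutrophil genes and 3 at 2-fold. With TMM Fos was at 0.699 (aged) and Jun at 0.682 (aged) and 0.791 (young). Where a setting only left fewer genes or changed the total, that is its construction; the cause of the other shifts was not tested. The share of cells with a UMI of the 8 genes was 95% unthinned and 80.1% at 1000 UMIs in aged neutrophils, 99.5% and 95.5% in young neutrophils, 100% and 85.7% in aged monocytes and 99.4% and 90.4% in young monocytes. The Fos over Jun family ratio of monocytes was 0.970 (aged) and 0.855 (young) thinned to 500 UMIs. Of the 10 genes detected with the 8, 0 were among the first 10 at 1000 UMIs. Depth limits Fosb, Atf3 and Egr1 in neutrophils and all rare genes in dendritic, NK and B cells.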

Other observations

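Cells labelled Eryth-Neutro, 15 aged and 13 young, had the lowest summed CPM of the 8 genes of any label. It was 690 CPM (495 to 936) in the aged and 422 CPM (285 to 603) in the young library. Erythroid markers took 655500 CPM in the aged and 884900 CPM in the young cells of this label. They lower the CPM of every other gene there, and more so in the young library. Levels without erythroid genes were not computed. The aged over young ratio was 1.63 (0.996 to 2.71), from 41 against 30 UMIs. The aged interval overlapped that of aged NK cells (891 to 1239 CPM). Fos had 16 aged and 12 young UMIs, Junb 15 and 11, and Jund 8 and 6, and Fosb, Jun and Egr1 had none in either library.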
